A study of Rattus norvegicus with 20 samples.

Results

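The dorsal subiculum of rats was compared 24 hours after a preconditioning protocol and in control animals. The comparison used the 10 libraries labelled dorsal subiculum, 5 control and 5 preconditioning, of the 20 libraries in the series, and it covered every gene in the count table. All animals were wild-type Wistar rats aged 3 months. The series title describes the protocol as acute seizures evoked by electrical stimulation of the perforant pathway, and the labels do not state how the control animals were handled. Tissue was cut from frozen hippocampal sections by laser microdissection, which collects all cell types of the area together, and stranded poly(A) libraries were sequenced. The other 10 libraries, from the ventral subiculum under the same conditions, are used only to set the dorsal response beside the ventral one.

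The subiculum is the main output station of the hippocampus. It receives input from CA1 and from the entorhinal cortex through the perforant pathway, and its dorsal part is linked mainly to spatial and memory circuits, whereas the ventral part is linked mainly to stress and emotional circuits. Seizures switch on waves of activity-dependent transcription in neurons, and a mild earlier insult of this kind is used as a model of preconditioning, in which tissue tolerates a later insult better. Genes in the deposited table carry Ensembl rat identifiers without names, and 0 of the 32883 identifiers matched the reference table used here. Genes are therefore given by identifier, the tissue label was not checked against marker genes, and the roles of the genes below are not stated. In dissected tissue, fewer cells of a type and less RNA per cell cannot be told apart.

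Total counts ran from 8011902 to 19736089 in the controls and from 6811740 to 15070017 in the preconditioned libraries (two-sided exact permutation p = 0.452, with 0.00794 the smallest possible). Between 16545 and 17778 genes were detected per control and between 16541 and 17747 per preconditioned library (exact permutation p = 0.897). Within each group, every pair of libraries differed by more than counting noise (chi-square per degree of freedom of 5.31 to 40.0). One library in each group stood apart. In dorsal control 4, 1064 genes were at least 2-fold lower than the mean of the other controls, where the remaining controls had 54 to 226 such genes. In dorsal preconditioning 2, 209 genes were at least 2-fold higher than the mean of its group's other libraries, against 14 to 36 in the rest. The labels do not say whether the libraries came from separate animals, so p-values measure the spread between these libraries.

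Few genes changed past the threshold in the dorsal subiculum, and most of those that did rose. Of 13647 genes tested, 37 (0.271%) were called, meaning an adjusted p-value under 0.05 in edgeR's quasi-likelihood test. Of these, 29 (0.213%) were higher and 8 (0.0586%) lower after preconditioning. Over all genes tested, the median log2 fold change was -0.007 and 48.4% of the estimates were positive. Before adjustment the directions were nearly balanced, with 1107 genes (8.11%) at a p-value under 0.05, 525 of them (3.85%) higher and 582 (4.26%) lower. Estimated changes of at least 2-fold, with or without a call, were less balanced, at 99 higher and 26 lower. The number called depended on the 2 libraries that stood apart. Without both of them, 105 genes were called, 73 higher and 32 lower, and 33 of the 37 were among them. The number and the share that rose also depended on the test. DESeq2 called 169 genes, 99 higher and 70 lower. With limma-voom and sample quality weights 172 were called, 108 higher and 64 lower.

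**Figure D1:**
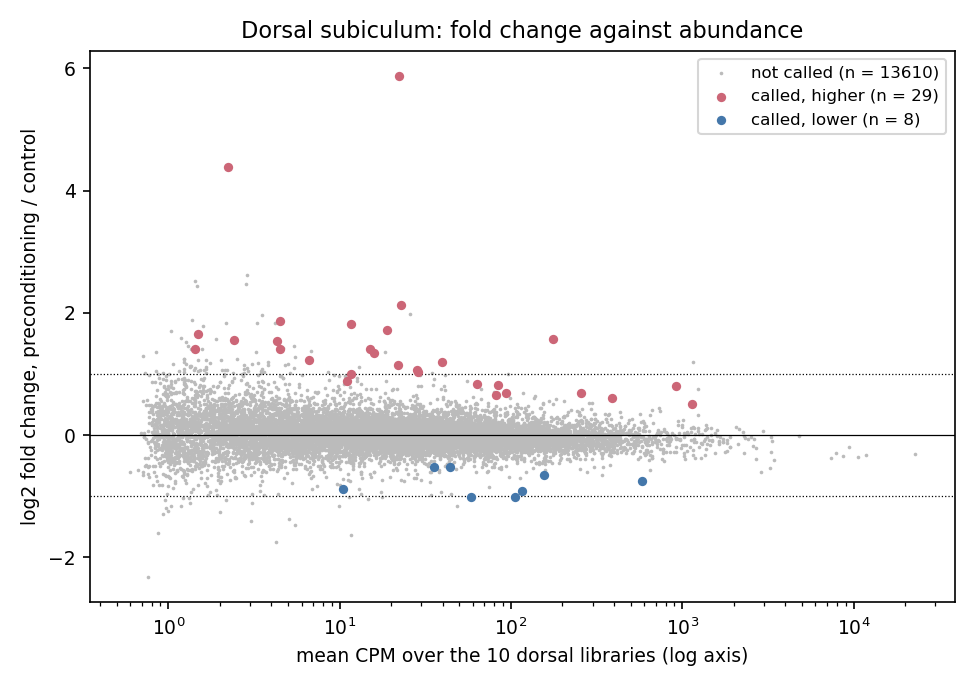
Each point is 1 of the 13647 genes tested, at its mean normalised read count (CPM, log axis) over the 10 dorsal libraries and its log2 fold change, with dotted lines at 2-fold. The 29 genes called higher reach a log2 fold change of 5.88, whereas the 8 called lower go no further than -1.02.

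Among the called genes, the largest rise was that of ENSRNOG00000011824, which was low in every control. In normalised read counts (CPM) it measured 1.24, 0.399, 1.08, 0.527 and 0.127 CPM in controls 1 to 5, from 2 to 24 counts. In preconditioned libraries 1 to 5 it measured 46.3, 34.6, 65.4, 22.8 and 49.0 CPM, from 350 to 591 counts. Every preconditioned library lay far above every control, and the lowest of them was 18.5 times the highest control. The means were 0.674 ± 0.469 and 43.6 ± 16.0 CPM (SD, n = 5 each). This is a log2 fold change of 5.88 (SE 0.41, edgeR adjusted p = 1.59e-05). It had the smallest p-value of all genes tested. Its control counts alone were too low for the abundance filter, so it was tested because of its preconditioned libraries.

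The second largest rise among the called genes, that of ENSRNOG00000024028, started from almost no reads. Controls 1 to 5 held 2, 2, 5, 3 and 0 counts, or 0.103, 0.266, 0.361, 0.316 and 0 CPM. Preconditioned libraries 1 to 5 held 58, 13, 56, 49 and 45 counts, or 5.15, 0.999, 8.15, 3.20 and 3.73 CPM. The groups did not overlap, but preconditioning 2 was only 2.76 times the highest control, and the preconditioned mean of 4.24 ± 2.65 CPM (SD, n = 5) varied widely. No control of this gene was high enough for the abundance filter, so it was tested only because the preconditioned libraries were high. The separation of its groups therefore describes it and adds no support. The log2 fold change was 4.39 (95% interval 3.02 to 5.77, edgeR adjusted p = 0.00882).

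Decreases were smaller. ENSRNOG00000019422, the called gene with the largest fall, measured 74.4, 65.4, 81.9, 91.0 and 81.1 CPM in controls 1 to 5. It measured 46.2, 28.1, 34.1, 41.7 and 43.5 CPM in preconditioned libraries 1 to 5. The groups were well separated, with the highest preconditioned library at 0.706 of the lowest control. The log2 fold change was -1.02 (SE 0.14, edgeR adjusted p = 0.00501), so the level fell to 0.492 of the control mean.

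ENSRNOG00000005034 fell by nearly the same factor from a higher level. Controls 1 to 5 measured 115, 133, 157, 181 and 126 CPM, and preconditioned libraries 1 to 5 measured 74.3, 63.1, 64.4, 67.5 and 83.6 CPM. The preconditioned values were tighter than the control values, with means of 70.6 ± 8.47 and 142 ± 26.7 CPM (SD, n = 5 each). The log2 fold change was -1.01 (SE 0.13, edgeR adjusted p = 0.00501). Dorsal control 4 was the highest control for both of these genes, and without it their log2 fold changes were -0.96 and -0.90 (edgeR adjusted p = 0.00562 and 0.00261). Whether any of these genes shares reads with a near-identical copy or an overlapping gene was not tested.

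**Figure D2:**
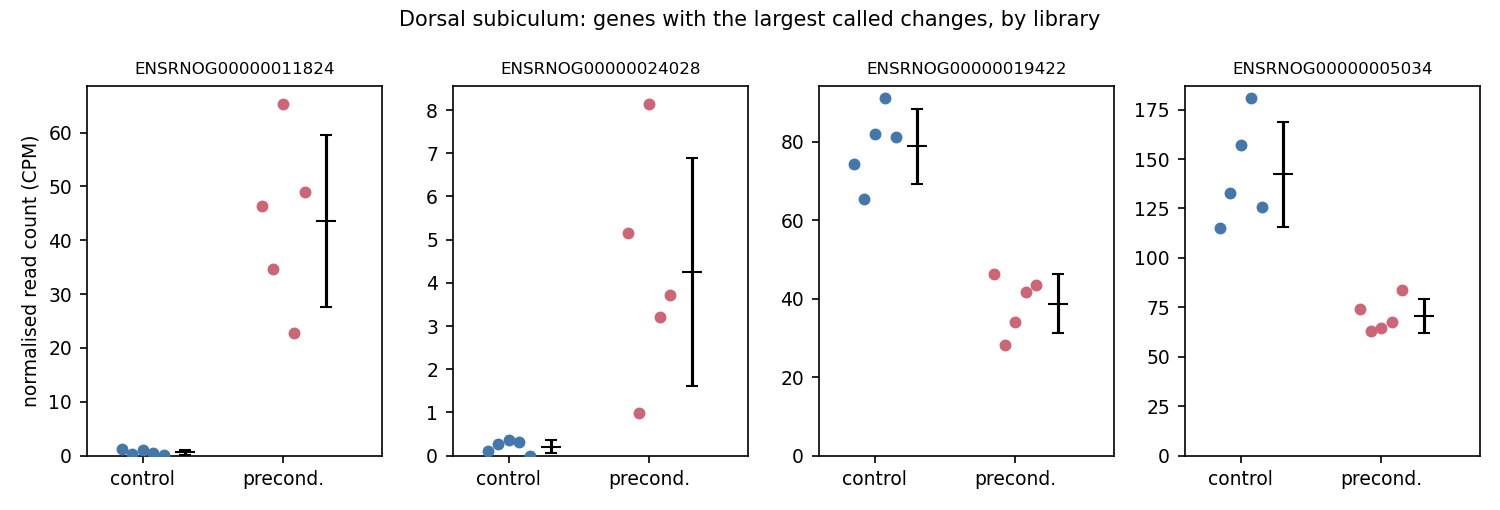
Normalised read counts (CPM, linear axes from 0) of the 2 called genes with the largest rises and the 2 called genes with the largest falls, with 1 point per library in replicate order and the mean ± SD (n = 5) beside the points. In all 4 panels the control and preconditioned points do not overlap.

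The 29 genes that rose had a lower median control level than all genes tested, but they spanned the range of abundance. Their median log2 fold change was 1.22, and 19 of them changed at least 2-fold. Of these 19, 3 changed more than 4-fold, with the third of them at a log2 fold change of 2.13, and 16 changed between 2- and 4-fold. For 9 of the 29 the 95% interval lay wholly above 2-fold. Control means ran from 0.209 to 948 CPM with a median of 8.69 CPM, where the median over all genes tested was 23.3 CPM, and 16 of the 29 were under 10 CPM in controls. In preconditioned libraries the median of the 29 was 30.2 CPM. Among the 29, larger changes went with lower control levels. The control level is also the denominator of the fold change, so the level and the change are tied. The 19 genes that changed at least 2-fold had a median control level of 5.27 CPM, and the other 10 had one of 67.9 CPM. Small changes are also less likely to pass the test in rare transcripts, whose errors are larger. The part of either in this pattern was not tested.

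Control and preconditioned values were fully separated for 28 of the 29, where 1.03% of all genes tested were separated in this direction. The same contrast chose the genes, so this describes them and adds no support. The ratio of the lowest preconditioned to the highest control library had a median of 1.41 and reached 18.5. In the single overlapping gene, singled out after its values were seen, the overlap came from the 2 libraries that stood apart. Dorsal control 4 measured 865 CPM and dorsal preconditioning 2 measured 856 CPM, whereas the next highest control measured 685 CPM and the next lowest preconditioned library 1180 CPM. The 29 genes together made up 2389 to 2878 CPM in controls and 3873 to 4958 CPM in preconditioned libraries.

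The 8 genes that fell were moderately to highly expressed. Their control means ran from 13.5 to 734 CPM with a median of 111 CPM, and none was under 10 CPM. Their median log2 fold change was -0.82. The 2 named above changed at least 2-fold, 4 changed between 1.5- and 2-fold, and 2 changed less than that. For 0 of the 8 did the 95% interval lie wholly beyond 2-fold. All 8 were separated between the groups, where 1.16% of all genes tested were separated in this direction, and the highest preconditioned library was between 0.706 and 0.933 of the lowest control. Together the 8 made up 1327 to 1572 CPM in controls and 714.9 to 971.7 CPM in preconditioned libraries. Dorsal control 4 had the highest control value for 5 of the 8, and dorsal preconditioning 2 had the lowest preconditioned value for 7 of the 8. These are the 2 libraries that stood apart, and how often they are the extreme over all genes tested was not counted.

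The highest and lowest values of the 29 genes that rose were not spread evenly over the preconditioned libraries. How often each library is the extreme of its group over all genes tested was not counted, so these counts are not particular to the called genes. Dorsal preconditioning 3 had the highest value of its group for 15 of the 29 genes that rose, and dorsal preconditioning 1 for 8. Dorsal preconditioning 5 was highest for 0 and lowest for 9 of the 29, dorsal preconditioning 4 was lowest for 10 and dorsal preconditioning 2 for 8. Relative to the rest of its group, the median log2 ratio over the 29 genes was 0.22 in preconditioning 3 and -0.19 in preconditioning 4. Both are small beside the median log2 fold change of 1.22 of these genes. Preconditioning 3 was also the shallowest dorsal library, with 6811740 counts; the part of depth in this order was not tested.

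**Figure D3:**
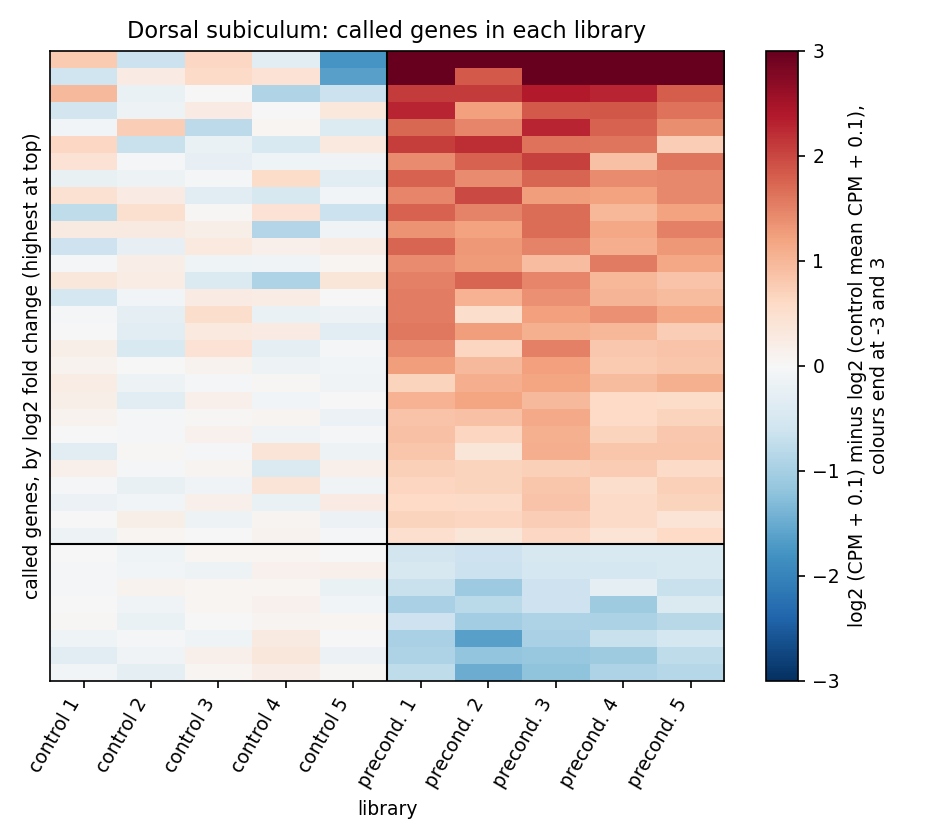
Each row is 1 of the 37 called genes, ordered by log2 fold change, and each column is 1 dorsal library. Colour gives the log2 CPM (0.1 added) minus that of the control mean. The 29 genes above the horizontal line are red in every preconditioned library, the 8 below it are blue, and the genes were chosen on these libraries.

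Leaving out single libraries moved the number of calls. Without dorsal preconditioning 3, 15 genes were called, 12 higher and 3 lower, and all 15 were among the 37. Without dorsal preconditioning 1, 21 genes were called, 16 higher and 5 lower, of which 20 were among the 37. The number lower was 13 without dorsal control 4, 14 without dorsal preconditioning 2 and 5 without dorsal control 2. All 37 kept their sign in each of the 10 fits that left out 1 library. Since 28 of the 29 and all 8 were fully separated between the groups, their sign could hardly have changed. Of the 29 genes that rose, 12 were called in all 10 of these fits, and of the 8 that fell, 3 were. The 4 genes named first were called in all 10.

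Near the threshold the calls had no sharp edge. The last gene called had an adjusted p-value of 0.0489 and the first one not called had 0.0542. A further 39 genes lay between 0.05 and 0.1, 20 higher and 19 lower. At an adjusted p-value under 0.01 there were 13 genes, 11 of them higher.

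Changes of 2-fold were excluded at the 95% level, gene by gene, for most of the genes tested, which leave out the rarest transcripts. The interval of 12124 genes (88.8%) lay between a 2-fold decrease and a 2-fold increase. Precision depended on abundance. The median standard error of the log2 fold change was 0.30 among the 3411 least abundant genes tested, up to 6.57 CPM, and 0.11 among the 3412 most abundant, above 63.0 CPM. The intervals excluded a 2-fold change for 63.5% of the genes of the former and 99.1% of the latter. Of the 3411 least abundant genes, 7 were called higher and 0 lower. Of the 3412 most abundant, 9 were called higher and 4 lower.

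At an unadjusted p-value under 0.05, direction followed abundance. Among the 3411 least abundant genes 174 were higher and 68 lower, and among the 3412 most abundant 108 were higher and 253 lower. That pattern was weaker without both of the 2 libraries that stood apart, and it remained without either alone. The alternatives for this pattern were chosen after the data were seen, and its cause was not tested. Without both, the counts were 163 higher and 129 lower among the least abundant genes, and 200 higher and 244 lower among the most abundant. Without dorsal control 4 alone they were 176 and 87, and 133 and 244. Without dorsal preconditioning 2 alone they were 154 and 93, and 135 and 203. With DESeq2's size factors in place of TMM they were 179 and 66, and 114 and 239.

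Switching from complete absence to presence was rare. Of 32883 identifiers, 20612 had at least 1 count in a dorsal library and 14752 had one in all 10. There were 5 genes with 0 counts in every control and at least 1 in every preconditioned library, none with more than 21 counts in any library. The reverse held for 3 genes, with at most 6 counts. None of the 5 was abundant enough to be tested.

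Genes called in the dorsal subiculum were then examined in the 10 ventral libraries, which the dorsal call had not used. Of the 29 genes that rose, 27 were tested there and 24 were called higher, where 2.93% of all genes tested in the ventral region were. Their median ventral log2 fold change was 1.52, beside 1.20 for the same 27 genes in the dorsal region and -0.011 for all genes tested in the ventral region. The ventral ranges did not overlap for 24 of the 27, where 3.66% of all genes were separated in that direction. Of the 8 genes that fell, 3 were called lower in the ventral region, where 2.12% of all genes were, and 2 were separated, where 3.06% of all genes were. Their median ventral log2 fold change was -0.49, beside -0.82 in the dorsal region. None of the 35 was called in the opposite direction. Dorsal and ventral tissue of a given number may have come from 1 animal, which the labels leave unsaid, so the regions may not be independent. Across the regions, libraries correlated best with their own number in 5 of 5 control and 4 of 5 preconditioned pairs.

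The named genes showed the same direction in both regions. ENSRNOG00000011824 measured between 0.621 and 2.20 CPM in ventral controls and 412, 167, 301, 279 and 305 CPM in ventral preconditioned libraries 1 to 5. Its ventral log2 fold change was 8.0 (SE 0.30), beside 5.88 in the dorsal region. The difference between the responses, tested as an interaction over all 20 libraries, was 2.13 on the log2 scale (95% interval 0.84 to 3.41, unadjusted p = 0.00233, adjusted p = 0.316 in edgeR). It did not pass the threshold after adjustment. With same-numbered libraries of a condition as a replicate block, the difference was 1.81 (edgeR adjusted p = 0.169). ENSRNOG00000024028 rose by 4.75 on the log2 scale (SE 0.46) in ventral tissue, and its regional difference of 0.36 had a wide interval of -1.82 to 2.54. For the genes that fell the intervals were narrower. The difference was 0.03 (-0.53 to 0.60) for ENSRNOG00000019422 and 0.08 (-0.27 to 0.43) for ENSRNOG00000005034, so regional differences of more than 2-fold lay outside both intervals.

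**Figure D4:**
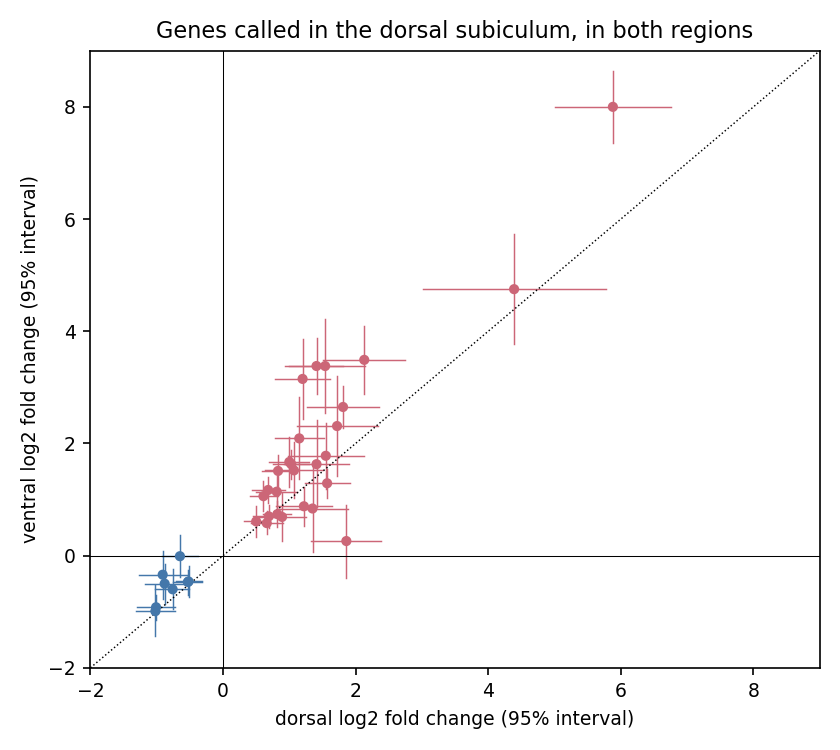
Log2 fold changes with 95% intervals of the 35 genes called in the dorsal subiculum and tested in both regions (27 higher in red, 8 lower in blue, dotted line of equal change). All 35 points lie on the same side of 0 in both regions, and the highest point, at 5.88 and 8.0, is ENSRNOG00000011824.

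Across all 14087 genes, the dorsal and ventral responses differed for 11 (0.0781%) in edgeR's interaction test, 10 of them more positive in the ventral region. That fit had no replicate block. With same-numbered libraries of a condition as a block, 62 genes were called, 46 of them more positive in the ventral region. The 11 genes of the fit without a block are described here. In the dorsal subiculum, 1 of these 11 genes was called, and 6 had an unadjusted p-value under 0.05. Over all genes tested there, 0.271% were called and 8.11% had such a p-value. For 4 of the 11 the dorsal and ventral estimates were of opposite sign. Their dorsal log2 fold changes ran from -0.40 to 1.41 with a median of 0.19, and 9 of the 11 changed less than 1.5-fold. For 10 of the 11 the dorsal 95% interval excluded a 2-fold change in either direction, which is near the 88.8% of all genes tested there. They were chosen for the difference, so these values describe them.

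In the fits without a replicate block, the gene called both for the interaction and in the dorsal comparison was ENSRNOG00000023633. It measured 5.30, 6.92, 10.2, 9.17 and 9.68 CPM in dorsal controls 1 to 5 and 27.8, 20.6, 23.2, 17.7 and 20.4 CPM in dorsal preconditioned libraries 1 to 5. It measured between 2.18 and 5.87 CPM in ventral controls and between 31.2 and 46.0 CPM in ventral preconditioned libraries. The groups did not overlap in either region. The log2 fold change was 1.41 (SE 0.19, edgeR adjusted p = 0.00501) in the dorsal and 3.38 (SE 0.23) in the ventral region. The difference between them was 1.98 (SE 0.31, adjusted p = 0.00767 in edgeR).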

How the data were processed

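RNA from laser-microdissected subiculum was sequenced as stranded poly(A) libraries, per the labels' protocols. The authors deposited 1 table of raw counts per gene for 20 libraries. STAR, DESeq2 and the build Rnor_5.0 are named in the submitters' processing notes, without versions or roles; the annotation, the counting tool and its strand setting are not given in the sources used here. Groups and numbers came from the titles. Codes of treated columns start with e and those of the titles with p; they were matched by number and region, which assumes that both letters mean the same treatment.

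The 10 dorsal libraries were fitted with edgeR 4.0.16 in R 4.3.3 (filterByExpr, TMM, glmQLFit with robust=TRUE, glmQLFTest), with Benjamini-Hochberg adjustment over all genes tested. The 10 ventral libraries were fitted alike, and the interaction on all 20. Normalised read counts (CPM) were scaled to TMM-corrected library size within each fit. By total counts without that correction, 3 counts equalled 0.152 to 0.440 CPM in the dorsal libraries, which covers counting error only. The method was also run on simulated counts with 2-fold changes and no library that stood apart, so that run does not cover such libraries. No result above rests on it. Alternatives included DESeq2 1.42.0 and limma-voom 3.58.1. Figures used matplotlib 3.10.9.

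Named genes were the 2 called genes with the largest rise and the 2 with the largest fall, plus genes called for the interaction and in the dorsal comparison; the other interaction genes, which the rule also covers, are given as a summary because they have no names. The members, rules and lists were chosen with earlier results of these data known. The 29 gene lists written by symbol, 19 of pathways and 10 of cell types, were not used, since no identifier matched a symbol.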

Additional observations from a re-analysis of the deposited data

Results flagged for a closer look

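In dorsal control 4 the first principal component of the dorsal libraries was -64.06, with the other controls between -1.59 and 8.42. In dorsal preconditioning 2 the third component was 36.38, and its highest value elsewhere in that group was 1.99. ENSRNOG00000011824 measured 2.20 CPM in ventral control 3, above the 0.621 to 1.06 CPM of the other ventral controls. Each of these values lay far from the rest of its group of 5. The third is a value of 1 gene, at 14 counts, and does not describe the library as a whole. In all, 30 groups of 5 values were searched and 3 contained such a value, beside about 1.5 by chance. The ventral and dorsal responses differed for 11 genes by edgeR's interaction test, at an adjusted p-value under 0.05.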

How the results depend on the processing

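The number of dorsal genes called was 37 (29 higher, 8 lower) and became 169 (99 and 70) with DESeq2, 172 (108 and 64) with limma-voom and sample quality weights, 97 (70 and 27) with all 20 libraries in 1 fit, and 105 (73 and 32) without dorsal control 4 and dorsal preconditioning 2. Without a filter beyond 1 count, 15 were lower. Leaving out 1 library gave 15 to 50 genes, 12 to 36 higher and 3 to 14 lower. The share of higher calls was 78.4%, and 58.6% with DESeq2. All 37 were among the DESeq2 calls and 35 among the limma-voom calls. The cause of these differences was not tested. With the replicate number as a block, 26 dorsal genes were called, 22 of them among the 37. Same-numbered dorsal libraries did not deviate together (r from -0.222 to 0.0794), and 0 of 5 correlated best with their own number. The log2 fold changes of the 4 named dorsal genes kept their direction and call in every alternative in which they were tested.

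The interaction count of 11 became 55 with DESeq2, 100 with limma-voom and 62 with same-numbered libraries of a condition as a replicate block, and 6 to 20 without 1 library. Of the 62, 2 were called in the dorsal comparison, both with the larger rise in the ventral region. Dorsal and ventral libraries of 1 number deviated together in all 5 control pairs (r from 0.200 to 0.393) and in 4 of 5 preconditioned pairs at an r over 0.1 (lowest 0.0376). ENSRNOG00000023633 kept its call in all 27 alternatives, with differences of 1.6 to 2.37. The ventral count of 672 became 1085 with DESeq2, 1261 with the replicate block and 432 to 1029 without 1 library. The uncalled regional differences of 3 named genes changed sign. With limma-voom they were -0.13 for ENSRNOG00000019422 and -0.12 for ENSRNOG00000005034. Without 1 library they ran from -0.15 to 0.15 for ENSRNOG00000019422, from -0.01 to 0.15 for ENSRNOG00000005034 and from -0.05 to 0.74 for ENSRNOG00000024028. ENSRNOG00000024028 has no value at a mean count of at least 50, and the planned gene-list alternatives were not run, since no identifier matched a symbol. Depth limits the rare transcripts most.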
